A study of Sus scrofa with 12 samples.

Results

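The 6 genes described here are the mitochondrially encoded subunits of respiratory complexes III, IV and V: CYTB, COX1, COX2, COX3, ATP6 and ATP8. They were taken by name from the pig mitochondrial genome, without a threshold on level but with earlier results of these data known. All 6 were matched among the 31908 gene identifiers that each file lists. Their levels were followed in porcine oocytes during in vitro maturation, at 0h, 22h and 46h, in 12 libraries with 4 for each time. The text deposited with the series assigns its 3 times to germinal vesicle (GV), before metaphase I (pre-MI) and metaphase II (MII), with the middle one given as 24h. The sample labels give that time as 22h, which is used here, and the share of oocytes at each stage in these libraries was not measured here. Immature gilts at a slaughterhouse gave the ovaries, and the cumulus-oocyte complexes were pooled, so that no library stands for 1 animal. By their labels the groups differ in culture time only. Culture was in a TCM199-based medium with follicular fluid, EGF, the gonadotropins PMSG and hCG, and cysteine. The complexes were stripped of cumulus cells and the denuded oocytes of a library were lysed together. Whether replicates came from separate collections is not stated, and the p-values then measure the spread between these libraries, which may be technical. The question behind the comparisons is how transcripts of metabolic enzymes change as oocytes pass from GV to MII.

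Mammalian mitochondria carry their own circular genome, which is transcribed as long RNAs that are cut into separate messengers, mostly at the transfer RNAs that lie between the genes. The messengers then receive short poly(A) tails. Cytochrome b, the product of CYTB, is the haem-bearing core of complex III, which passes electrons from ubiquinol to cytochrome c. COX1, COX2 and COX3 form the catalytic core of cytochrome c oxidase (complex IV), which hands those electrons to oxygen. ATP6 and ATP8 belong to the membrane part of ATP synthase (complex V). All other subunits of these 3 complexes are made from nuclear genes. Oocytes hold large numbers of mitochondrial genomes and rely on oxidative phosphorylation for their ATP.

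In the Sscrofa11.1 assembly of RefSeq the mitochondrial genome (MT) has 16613 bases, and all 6 genes lie on its plus strand as uninterrupted coding sequence. COX1 to COX3 share a single block from base 6511 to base 10583, in the order COX1 (6511 to 8055, 1545 bases, ENSSSCG00000018075), COX2 (8203 to 8890, 688 bases, ENSSSCG00000018078), ATP8 (8959 to 9162, 204 bases, ENSSSCG00000018080), ATP6 (9120 to 9800, 681 bases, ENSSSCG00000018081) and COX3 (9800 to 10583, 784 bases, ENSSSCG00000018082). CYTB stands apart at 15342 to 16481 (1140 bases, ENSSSCG00000018094). In the SMART-Seq2 method used for the libraries, reverse transcription is primed with oligo-dT, which binds runs of adenines such as the tail. The end of ATP8 lies inside ATP6, and the end of a coding sequence need not be where a tail begins. The last 30 bases of each gene are shown, with the part of the stop codon that the DNA holds in capitals:
CYTB: atcatcgaaaacaacctattaaaatgaAGA
COX1: gaagaaccaacatatatcaacctaaaaTAA
COX2: aaaaatggtcaacatcaatattaacaggtT
COX3: tttacgtatcaatctattgatgaggatccT
ATP8: tatttgcctcttttattgcccccacgaTAA
ATP6: gtaagcttatacctacacgacaatacaTAA
COX2 and COX3 end in a single T, so that the tail itself completes the stop codon. The stop codon of the other 4 genes is whole in the DNA, and that of CYTB is AGA, which the mitochondrial code of vertebrates reads as a stop. A transfer RNA gene follows directly on COX2 (tRNA-Lys), COX3 (tRNA-Gly) and CYTB (tRNA-Thr).

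ATP8 and ATP6 overlap by 43 bases, which is 21.1% of ATP8 and 6.31% of ATP6. ATP6 and COX3 share 1 base. Both junctions are shown because a read that covers the shared bases overlaps both genes. The shared bases are in capitals, at MT:9112-9170 and MT:9786-9815:
ATP8 and ATP6: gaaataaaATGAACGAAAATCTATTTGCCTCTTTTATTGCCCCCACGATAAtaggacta
ATP6 and COX3: cacgacaatacataAtgacccaccaaacac
The capitals of the first run open with the start codon of ATP6 and close with the stop codon of ATP8. ATP8 and ATP6 are known to stay together on 1 messenger, so their values are not independent measurements of separate RNAs.

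Some of these genes also have near-copies in the nuclear genome. In Sscrofa11.1, stretches of at least 150 bases with at least 95% identity were found for COX1, COX2 and ATP8. Chromosome 9 holds a copy of 196 bases of ATP8 (4701993 to 4702188, 98.5% identical, 96.1% of the gene), of 675 bases of COX1 (4700822 to 4701496, 99.1% identical, 43.7% of the gene) and of 270 bases of COX2 (4701655 to 4701924, 98.5% identical). No RefSeq gene lies over these 3 stretches. A further copy of 432 bases of COX2, 95.1% identical, lies inside ASTN1 on the same chromosome (118664851 to 118665282), and both copies together cover 62.8% of COX2. The best nuclear matches of ATP6, COX3 and CYTB were 91.6%, 94.6% and 92.9% identical. How reads that fit both places were shared out is not given in the sources used here, and the levels of COX1, COX2 and ATP8 are uncertain to that extent.

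Values are FPKM, fragments relative to the length of the transcript and to all mapped fragments of the library, as the authors deposited them. Total FPKM per library ranged from 697468 to 802184, and 5819 to 7895 genes per library reached 1 FPKM. FPKM values carry no counts, so the absolute depth is unknown and no counting interval is given. Genes listed above 0 in at most 6 libraries gave a relative depth of 0.907 to 1 (0h), 1.06 to 1.34 (22h) and 1.17 to 1.41 (46h), with 0h replicate 1 set to 1. This is a rough estimate that takes the most frequent ratio as that of genes with 1 read in both libraries. It rests on 40 to 196 genes per library, and at 46h on 40 to 56, of which 12 to 14 lay around that ratio. All 13 oocyte markers that were matched, of 15, had a mean of at least 1 FPKM at 0h, and 12 and 11 of them did at 22h and 46h. Of 13 matched cumulus and granulosa cell markers, of 16, STAR alone reached a mean of 1 FPKM, and the sum over the list ranged over 2.43 to 7.65 FPKM (0h), 2.99 to 4.68 (22h) and 4.17 to 6.22 (46h). Of those 13, AMHR2, INHA and LHCGR were listed at 0 in every library. Of 5 matched blood and immune markers, of 6, LYZ alone reached 1 FPKM.

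All 5 members other than ATP8 were among the most abundant transcripts of the oocyte and were higher at 46h than at 0h. Ranked by mean FPKM among all identifiers, ATP6 stood at place 15 at 0h, 3 at 22h and 2 at 46h. COX2 took place 24, then 10, then 9, COX1 took 37, then 14, then 12, and COX3 took 30, then 18 at both later stages. CYTB, the least abundant of the 5 at 0h, moved from place 182 to 35 and 15. The 6 genes together made up 2.88% ± 0.82 of total FPKM at 0h, 7.35% ± 1.44 at 22h and 11.7% ± 1.47 at 46h (SD, n = 4 each). FPKM is relative to the library, so more transcript of these genes per oocyte and less transcript of other genes cannot be told apart from these values. Reverse transcription was primed with oligo-dT, so the values of all genes may also depend on poly(A) tails, which were not measured here.

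CYTB had the steepest rise. Its FPKM was 304, 828, 633 and 318 in the 0h libraries (replicates 1 to 4), 5537, 3525, 3568 and 4699 at 22h, and 9339, 9623, 7494 and 11456 at 46h. The 3 stages did not overlap, and every library at 22h lay at least at 3525 FPKM against at most 828 at 0h. The mean went from 521 ± 255 to 4332 ± 970 and 9478 ± 1622 FPKM (SD, n = 4). On the log2(FPKM + 1) scale CYTB rose by 3.16 ± 0.297 (SE) from 0h to 22h (limma, Benjamini-Hochberg adjusted p = 1.14e-05) and by a further 1.14 ± 0.297 from 22h to 46h (adjusted p = 0.00578). Over the whole of maturation it rose by 4.30 (adjusted p = 1.63e-08), a ratio of mean FPKM of 18.2. That was the 3rd highest log2 fold change among the 7013 genes tested.

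**Figure D1:**
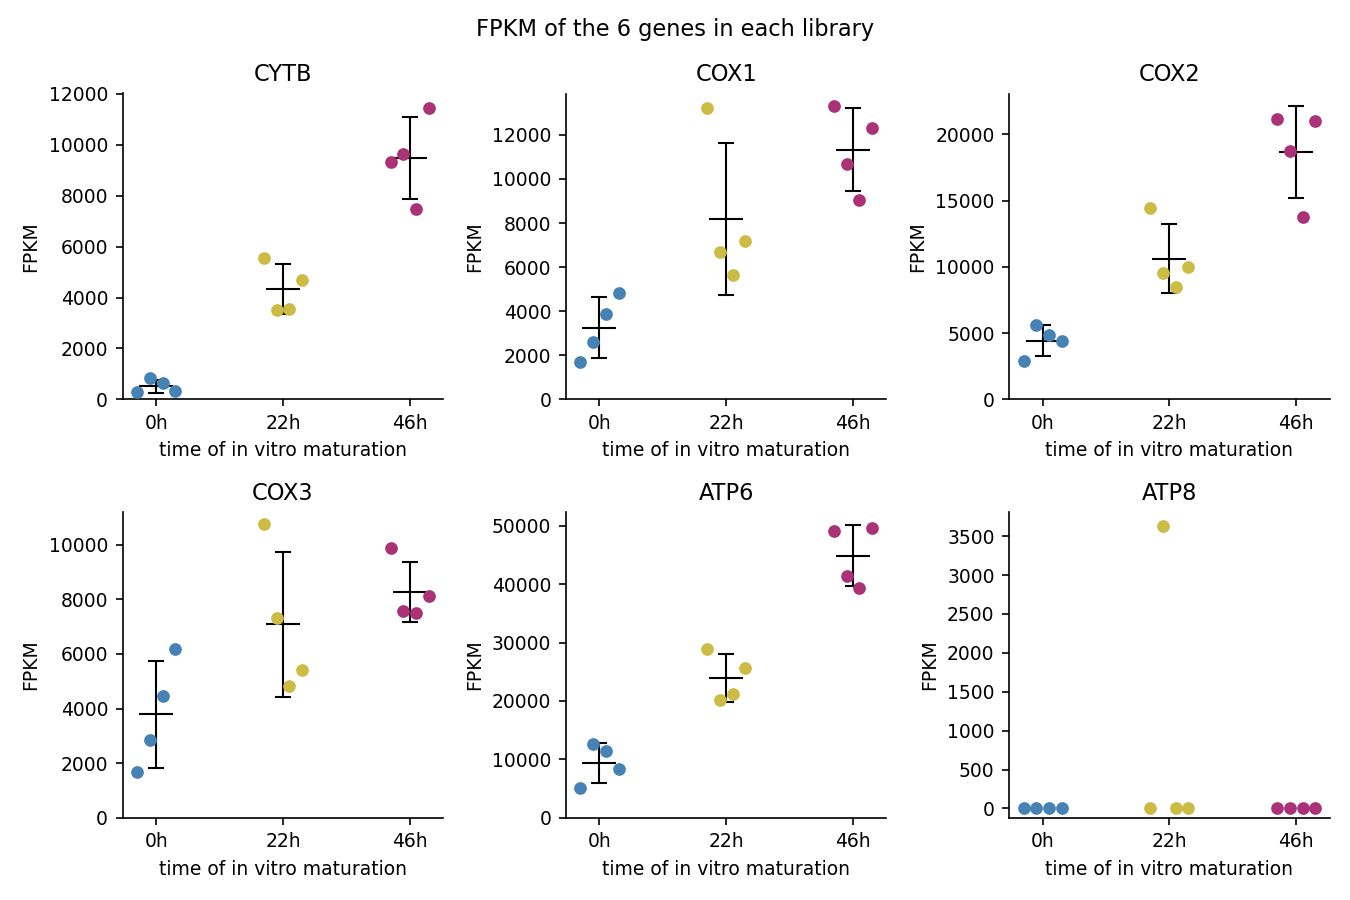
FPKM (vertical axis, linear, starting near 0, a separate scale for each gene) of CYTB, COX1, COX2, COX3, ATP6 and ATP8 against time of in vitro maturation. Each point is 1 library, and long bars with whiskers give the mean and SD of the 4 libraries of a stage (not drawn for ATP8, which is listed at 0 in 11 libraries). CYTB, COX1, COX2, COX3 and ATP6 have their lowest mean at 0h and their highest at 46h.

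COX1, the subunit that holds the oxygen-reducing centre, measured 1686, 2604, 3857 and 4832 FPKM at 0h, 13239, 6674, 5649 and 7170 at 22h, and 13295, 10662, 9066 and 12314 at 46h. All 22h and 46h libraries lay above all 0h libraries, while 22h replicate 1 lay among the 46h libraries. COX1 rose from 3245 ± 1383 to 8183 ± 3430 FPKM (SD, n = 4) by 22h, which was 1.36 ± 0.316 (SE) on the log2 scale (limma, adjusted p = 0.00507). From 22h to 46h (11334 ± 1862 FPKM) its log2 difference of 0.54 ± 0.316 did not pass the test (adjusted p = 0.177). Without 22h replicate 1 that difference was 0.79 and passed (adjusted p = 0.0442). At 46h against 0h COX1 was higher by 1.90 (adjusted p = 0.000113).

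COX2, which takes up the electrons from cytochrome c, measured 2875, 5626, 4835 and 4408 FPKM at 0h, 14424, 9564, 8489 and 10007 at 22h, and 21172, 18723, 13731 and 20976 at 46h. Here 0h stood clear of both later stages, and 22h replicate 1 lay above 46h replicate 3. COX2 rose by 1.27 ± 0.232 (SE) on the log2 scale to 22h (adjusted p = 0.00103, limma) and by 0.82 ± 0.232 from 22h to 46h (adjusted p = 0.0095). Its mean went from 4436 ± 1156 to 10621 ± 2614 and 18650 ± 3463 FPKM (SD, n = 4), a ratio of 4.20 over the whole of maturation (log2 fold change 2.09, adjusted p = 2.25e-06).

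COX3, a core subunit without a redox centre, had the smallest fitted change of the 5 measured members in each comparison. It measured 1664, 2851, 4477 and 6175 FPKM at 0h, 10743, 7326, 4821 and 5429 at 22h, and 9880, 7586, 7493 and 8105 at 46h. The 0h and 22h libraries overlapped, since 0h replicate 4 lay above 22h replicates 3 and 4, and the 22h and 46h libraries overlapped as well. The mean was 3792 ± 1963, 7080 ± 2665 and 8266 ± 1109 FPKM in the order of the stages (SD, n = 4). The difference to 22h of 0.99 ± 0.345 (SE) on the log2 scale passed narrowly (limma, adjusted p = 0.0413). It was lost in 9 of the 12 fits that left out 1 library (0h replicates 1 and 2, 22h replicates 1, 2 and 4, and each of the 46h replicates), with adjusted p from 0.0504 to 0.118 and log2 differences from 0.65 to 1.10. From 22h to 46h the log2 difference was 0.29 ± 0.345 (adjusted p = 0.518), and it ranged from 0.13 (without 22h replicate 3) to 0.51 (without 22h replicate 1) with 1 library left out. It was called in none of these 12 fits (adjusted p between 0.258 and 0.805). At 46h against 0h the libraries did not overlap, and COX3 was higher by 1.28 ± 0.345 (adjusted p = 0.00495), a ratio of means of 2.18.

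ATP6, the subunit through which protons cross the membrane beside the rotating ring of ATP synthase, was the most abundant of the 6 genes in every library. Its FPKM was 5076, 12703, 11419 and 8388 at 0h, 28862, 20159, 21151 and 25652 at 22h, and 49083, 41468, 39370 and 49565 at 46h. The 3 stages did not overlap. ATP6 rose by 1.42 ± 0.248 (SE) on the log2 scale to 22h (adjusted p = 0.000776, limma) and by 0.91 ± 0.248 from 22h to 46h (adjusted p = 0.00753). The mean rose from 9396 ± 3401 to 23956 ± 4051 and 44872 ± 5216 FPKM (SD, n = 4), and the ratio of the last to the first was 4.78 (log2 fold change 2.33, adjusted p = 1.45e-06).

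ATP8, a small membrane subunit of ATP synthase, was listed at 0 in 11 libraries and at 3628 FPKM in 22h replicate 2. In that library ATP8 stood at 18% of ATP6 and took 5.70% of the FPKM of the 13 mitochondrially encoded protein genes. The other 5 members were above 0 in all 12 libraries. Of 2200 identifiers listed at 0 in exactly 11 libraries, ATP8 was the 1 that exceeded 100 FPKM in the remaining library. At 204 bases it is the shortest of the 13 genes, ahead of ND4L with 297 bases, which was above 0 in every library. No fold change is given for ATP8, because a value of 0 in these files may be an estimate that failed.

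At 22h against 0h 5 of the 6 members were called higher (adjusted p under 0.05 and a fold change over 1.5), where 7.84% of the 7013 genes tested were called higher and 18.9% lower. For 4 of the 6, all 22h libraries lay above all 0h libraries, as held for 10.3% of the genes tested. At 46h against 22h, 3 members (CYTB, COX2 and ATP6) were called higher against a background of 9.87% higher and 32.6% lower, and 2 (CYTB and ATP6) did not overlap against 13.2% of genes. With quantile normalization, or without the filter on low values, CYTB alone was called in that comparison. At 46h against 0h, 5 members were called higher and did not overlap, where 16.8% of genes were called higher, 39.1% lower and 18.2% did not overlap in that direction. ATP8, which entered the fit through 1 library alone, is the member never called, and its result carries no weight. Of the other 5, none was called lower in any comparison by limma, and 0 were lower at an unadjusted p under 0.05. Among the 7013 genes ranked by their change over the whole of maturation, ATP6 stood at place 16, COX2 at 23, COX1 at 36 and COX3 at 239. The 3 comparisons share libraries in pairs and are not independent of each other.

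**Figure D2:**
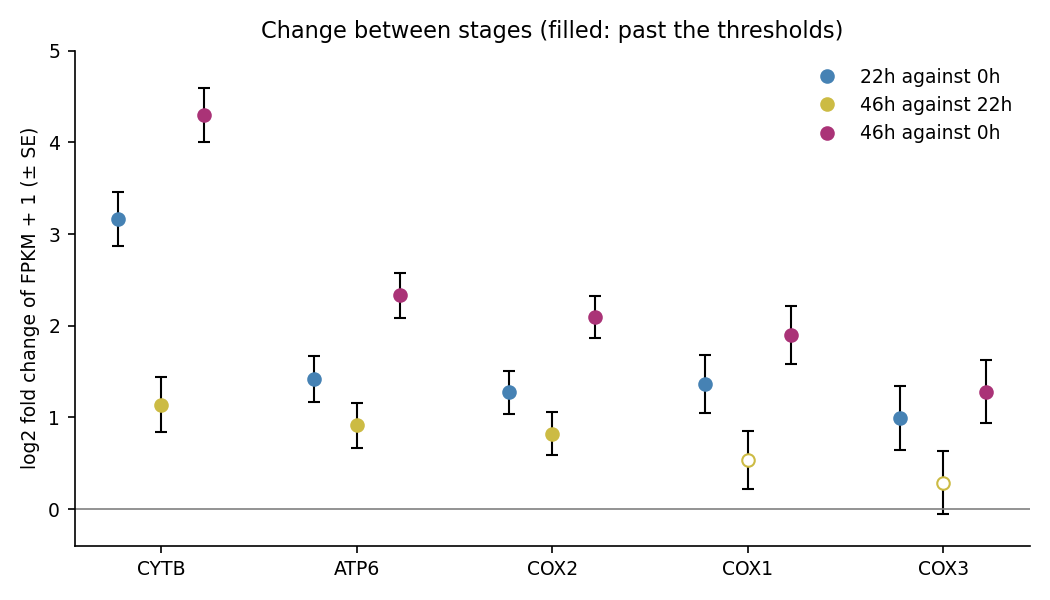
Log2 fold change of FPKM + 1 (vertical axis, with SE from limma, 4 libraries per stage) of CYTB, ATP6, COX2, COX1 and COX3 in the 3 comparisons between stages. Filled points passed an adjusted p under 0.05 and a fold change over 1.5. CYTB lies highest in each comparison, with 4.30 at 46h against 0h, and the open points are COX1 (0.54) and COX3 (0.29) at 46h against 22h.

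How much of the rise was reached by 22h depended on the scale. Of the fitted log2 rise from 0h to 46h, 73.5% was reached by 22h for CYTB, 60.8% for both COX2 and ATP6, 71.8% for COX1 and 77.6% for COX3, the last 2 without a called change after 22h. Of the rise in mean FPKM, 42.5% was reached by 22h for CYTB, 43.5% for COX2, 41.0% for ATP6, 61.1% for COX1 and 73.5% for COX3. The shares of COX1 and COX3 rested on 22h replicate 1, without which they were 40.2% and 46.2%, beside 38.1% for CYTB, 34.6% for COX2 and 36.4% for ATP6. Over all 12 libraries left out in turn, an alternative added after seeing the data, the share ranged from 40.2% to 71.5% for COX1 and from 46.2% to 90.3% for COX3. It stayed between 34.6% and 48.5% for CYTB, COX2 and ATP6. Libraries stood high or low for these genes together. At 0h replicate 1 was the lowest library in 5 of 5 members with a value, at 22h replicate 1 was the highest in 5 of 5, and at 46h replicate 3 was the lowest in 5 of 5.

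FPKM is scaled to transcript length, and the levels of the 5 genes with values are given side by side within a stage on that scale, with the uncertainty from nuclear copies named above for COX1 and COX2. Length scaling did not bring ATP8 near ATP6, with which it shares a messenger, so order between genes is a description of the FPKM only. At 0h the order of mean FPKM was ATP6, COX2, COX3, COX1 and CYTB, and the ranges over libraries overlapped between all neighbours except COX1 and CYTB. At 22h the order was ATP6, COX2, COX1, COX3 and CYTB, with ATP6 clear of COX2 and overlap between all other neighbours. At 46h CYTB had passed COX3, and the order was ATP6, COX2, COX1, CYTB and COX3. ATP6 and COX2 then stood clear of the gene below them, while COX1 and CYTB, and CYTB and COX3, overlapped. Compared within libraries, some overlapping neighbours kept their order in 4 of 4 libraries. These were ATP6 over COX2 at 0h, COX2 over COX1 and COX3 over CYTB at 22h, and COX1 over CYTB at 46h. The order held in 3 of 4 for COX2 over COX3 and COX3 over COX1 at 0h, COX1 over COX3 at 22h, and CYTB over COX3 at 46h.

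Ratios between members within a library do not depend on how the library was scaled. The ratio of CYTB to COX1 was 0.180, 0.318, 0.164 and 0.0658 at 0h, 0.418, 0.528, 0.632 and 0.655 at 22h, and 0.702, 0.903, 0.827 and 0.930 at 46h. The stages did not overlap, and the geometric mean went from 0.158 to 0.550 and 0.836. Each of the 3 differences reached 0.0286, the smallest two-sided p that an exact permutation test of 4 against 4 libraries can give, which is 0.0612 after Benjamini-Hochberg adjustment over the 15 ratio comparisons made here. The ratio of COX3 to COX1 was 0.987, 1.10, 1.16 and 1.28 at 0h, 0.811, 1.10, 0.853 and 0.757 at 22h, and 0.743, 0.711, 0.826 and 0.658 at 46h. All 46h libraries lay below all 0h libraries (geometric mean 1.13 at 0h and 0.732 at 46h, exact permutation p = 0.0286), whereas 22h overlapped both other stages (exact p = 0.0857 for each). After adjustment these came to 0.0612 and 0.129, both above 0.05, under the same smallest possible p.

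The neighbours ATP6 and COX3 have coding sequences that touch at the junction shown above. ATP6 over COX3 was 3.05, 4.46, 2.55 and 1.36 at 0h, 2.69, 2.75, 4.39 and 4.73 at 22h, and 4.97, 5.47, 5.25 and 6.12 at 46h. The 46h libraries lay above all others (exact permutation p = 0.0286 against 22h and against 0h), while 0h and 22h overlapped (exact p = 0.4). COX2 over COX1 had a geometric mean of 1.43 at 0h, 1.35 at 22h and 1.64 at 46h. All 46h libraries were above all 22h libraries (exact permutation p = 0.0286), and neither comparison with 0h separated (exact p = 0.8 and 0.571). ATP6 over COX1 had geometric means of 2.95, 3.06 and 3.98, with overlap in all 3 comparisons (exact permutation p = 0.943, 0.0571 and 0.2). In all, 15 ratio comparisons were tested. After Benjamini-Hochberg adjustment over the 15, the 7 at the smallest p came to 0.0612, and 0 passed 0.05. With 4 against 4 libraries a ratio can pass only if most of the 15 reach the smallest p. Failing to pass is therefore no sign that a ratio stayed the same.

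**Figure D3:**
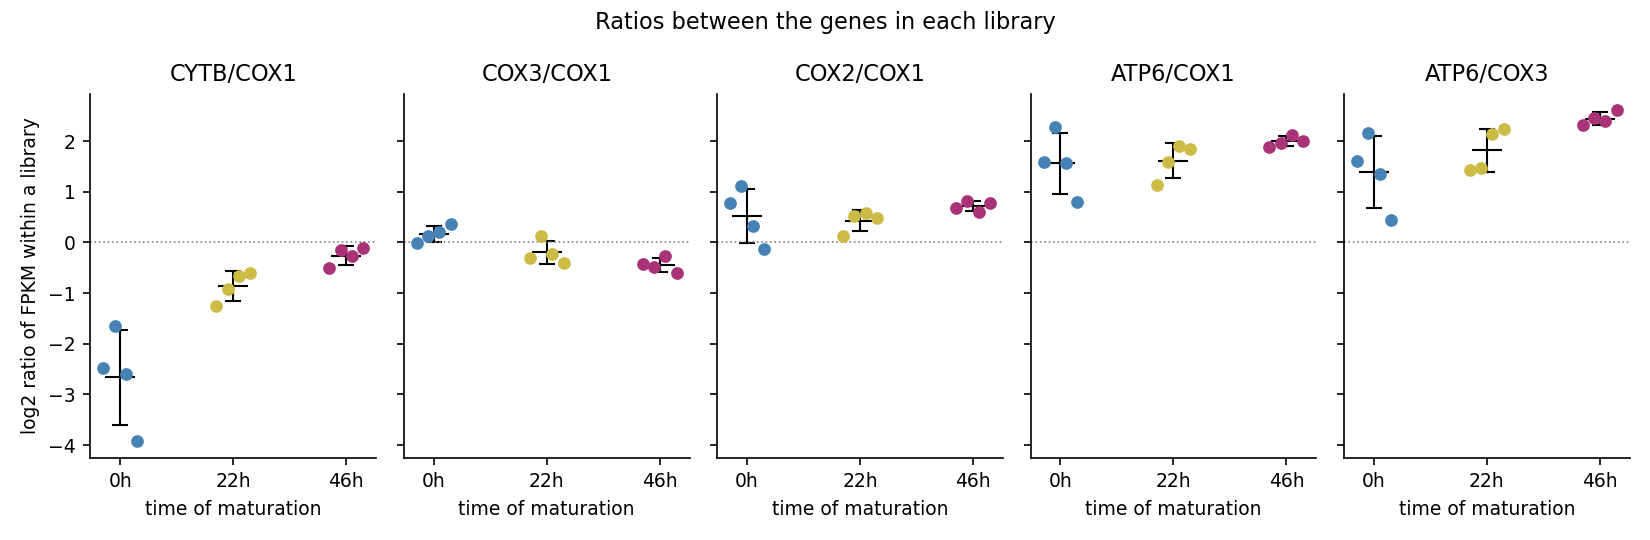
Log2 ratio of FPKM between pairs of the genes in each library (vertical axis, shared by all panels) against time of in vitro maturation. Points are libraries, and long bars with whiskers show the mean and SD of the 4 libraries of a stage. CYTB/COX1 increases from a mean of -2.66 at 0h to -0.86 at 22h and -0.26 at 46h, and the 0h libraries spread more than the 46h libraries in every panel.

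The mixture of mitochondrially encoded messengers was described through each gene's share of the FPKM of the 13 protein genes, without a test. The 3 COX genes took 49.3% ± 8.12 at 0h, 36.0% ± 4.01 at 22h and 31.6% ± 1.56 at 46h (SD, n = 4). ATP6 with ATP8 took 40.1% ± 5.71, 35.6% ± 3.07 and 37.2% ± 1.23. The 22h share includes the single ATP8 value of replicate 2, and ATP6 alone took 34.2% ± 3.31 there. CYTB took 2.24% ± 0.748, 6.13% ± 0.513 and 7.84% ± 0.722. The remaining share belongs to the 7 complex I genes, which took 8.33% ± 2.10, 22.2% ± 1.68 and 23.3% ± 0.767. The 6 members thus held 89.5% to 94.1% (0h), 76.0% to 79.9% (22h) and 76.1% to 77.8% (46h) of this FPKM. The 79.9% is that of 22h replicate 2, where the ATP8 value also enters the total.

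**Figure D4:**
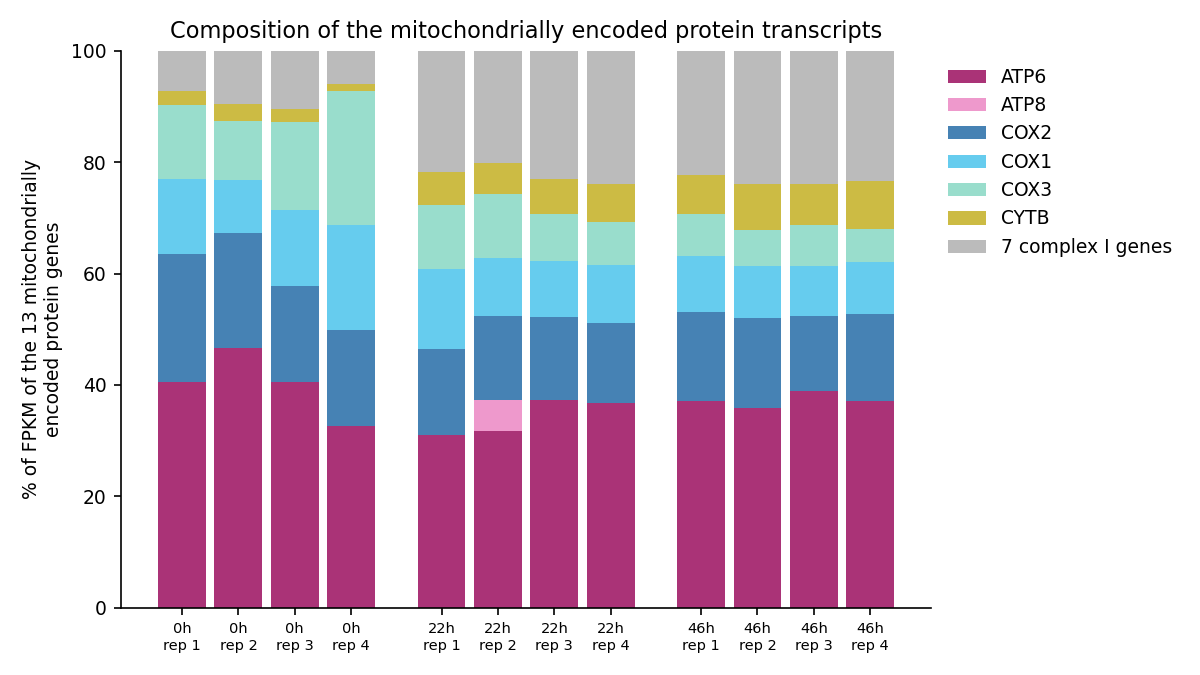
Share of the summed FPKM of the 13 mitochondrially encoded protein genes (vertical axis, %) in each of the 12 libraries, 1 stacked bar per library. The colours mark ATP6, ATP8, COX2, COX1, COX3 and CYTB, and grey marks the 7 complex I genes together. The grey part takes 5.95% to 10.5% (0h), 20.1% to 24.0% (22h) and 22.2% to 23.9% (46h), and ATP8 appears in 22h replicate 2 alone.

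The complex I genes, transcribed from the same genome, served as the comparison. At 22h against 0h all 7 were called higher (background 7.84% of the genes tested), with log2 fold changes from 1.63 to 4.42. At 46h against 0h all 7 were called higher (background 16.8%), with 2.4 to 5.2. At 46h against 22h 4 of 7 were called higher (background 9.87%). CYTB (4.30 at 46h against 0h) lay within the complex I range, while ATP6, COX2, COX1 and COX3 (1.28 to 2.33) lay below its lowest value. The difference between the groups was not tested. Across the 12 genes other than ATP8, the change over the whole of maturation (log2) had a Pearson r of -0.71 with the GC content of the gene, -0.64 with its log2 mean level at 0h, 0.53 with its position on the genome and -0.05 with its length. These 12 points share the same libraries and 0h level enters both sides of the second value, so they are a description. At 46h against 22h the same r were -0.19, 0.11, 0.15 and 0.55.

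Over the 12 libraries the 5 measured members varied together, with Pearson r of log2(FPKM + 1) from 0.752 for CYTB with COX3 to 0.987 for COX2 with ATP6. The member most like CYTB was ATP6 (r = 0.977), COX1 and COX3 were most like each other (r = 0.957), and COX2 and ATP6 were most like each other. The nuclear gene with a symbol that came closest was TRIM36 for CYTB (r = 0.975), SPAG16 for COX2 (0.953), SOS2 for COX3 (0.938) and ONECUT2 for ATP6 (0.970). All of these values share the stages and the scaling of the 12 libraries. TRIM36, for instance, had mean FPKM of 19.2, 60.9 and 122 at 0h, 22h and 46h, and ONECUT2 had 193, 485 and 779.

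The nuclear-encoded partners of the 6 members mostly changed in the opposite direction. Of 44 nuclear-encoded subunits of complexes III, IV and V, 32 were matched and 26 tested. At 46h against 0h 19 of the 26 were called lower and 2 higher, where 39.1% of all genes tested were called lower and 16.8% higher, with a median log2 fold change of -1.99 against -0.25 for all genes tested. At 22h against 0h 15 were lower and 1 higher (background 18.9% and 7.84%, median -0.92 against 0.00). At 46h against 22h 15 were lower and 2 higher (background 32.6% and 9.87%, median -1.05 against -0.26). Counts rest on the same fit and thresholds as for the members.

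Beside CYTB in complex III, 4 of 5 tested nuclear subunits fell from 0h to 46h, against the background of 39.1% that also applies to the complexes below. UQCRQ, a small subunit, fell from 289 ± 44.7 to 110 ± 37.8 and 23.3 ± 2.17 FPKM (SD, n = 4), which came to -3.57 on the log2 scale between the first and last stage (limma, adjusted p = 2.91e-09). UQCR10 and the core protein UQCRC1 had log2 fold changes of -2.10 and -2.08. Cytochrome c itself (CYCS), the carrier between complexes III and IV, fell by 0.68 on the log2 scale (adjusted p = 0.00816), from 29.3 ± 5.22 to 18 ± 4.0 FPKM.

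Beside the COX genes in complex IV, 6 of 10 tested nuclear subunits fell and 0 rose at 46h against 0h. The small subunits COX7A2 and COX7B went from 248 ± 104 to 8.30 ± 4.75 FPKM and from 314 ± 111 to 14.7 ± 7.31 FPKM (log2 fold changes of -4.82 and -4.43, adjusted p = 6.34e-08 and 2.68e-07). COX7A1, the isoform typical of heart and muscle, was low throughout (6.25 ± 1.21 FPKM at 0h) and fell by 2.21 on the log2 scale.

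In complex V, 9 of 11 tested nuclear subunits fell and 2 rose at 46h against 0h, the rises near the background of 16.8%. ATP5MC1, which encodes the c subunit of the rotating ring that ATP6 faces, fell from 1367 ± 478 to 138 ± 67.9 and 4.59 ± 2.61 FPKM (log2 fold change -8.04, adjusted p = 1.28e-09). ATP5IF1, an inhibitor of ATP hydrolysis by the synthase, and ATP5PO, part of its peripheral stalk, had log2 fold changes of -5.39 and -4.40. The 2 that rose were ATP5F1C, the gamma subunit of the central stalk (251 ± 39.9 to 482 ± 42.0 FPKM, 0.95 on the log2 scale, adjusted p = 0.00017), and ATP5MC3, another gene for the c subunit (14.1 ± 0.851 to 24.5 ± 3.26 FPKM, 0.75 on that scale, adjusted p = 0.000459).

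**Figure D5:**
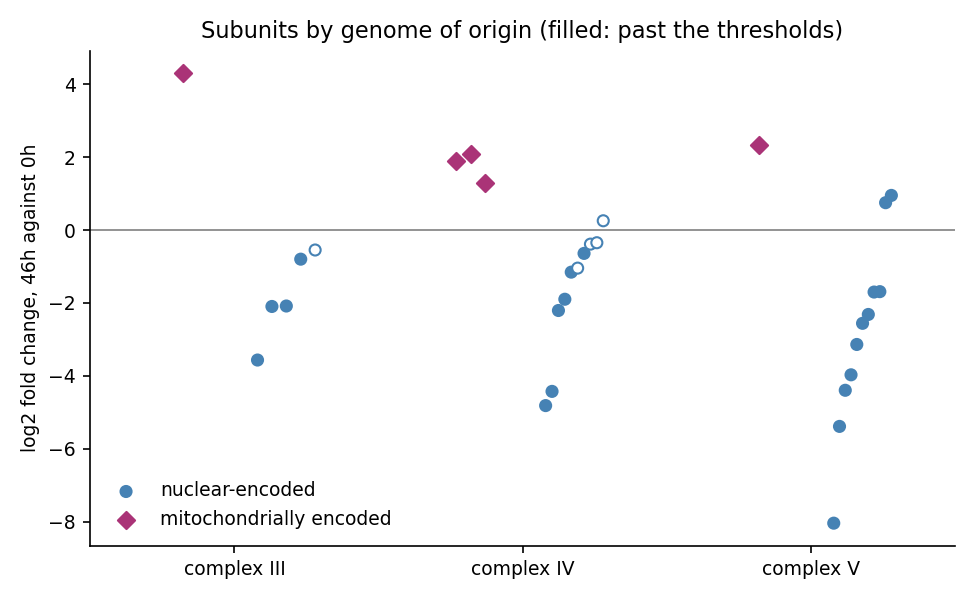
Log2 fold change of FPKM + 1 at 46h against 0h (vertical axis) of the subunits of complexes III, IV and V, grouped by complex. Diamonds are mitochondrially encoded genes (ATP8 is not drawn) and circles are nuclear-encoded genes that were tested, filled where they passed the thresholds. The 5 diamonds lie between 1.28 and 4.30, and 2 filled circles, both in complex V, lie above 0.

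Genes that build or supply these complexes were followed as fixed lists. Of 13 tested assembly factors of complexes III, IV and V, 9 fell and 0 rose at 46h against 0h, where 39.1% of all genes were called lower and 16.8% higher. One of the 9, PET100, needed to assemble complex IV, was called on zeros: its libraries lay between 43.8 and 143 FPKM at 0h and between 10.2 and 157 at 22h (not called), and all 46h libraries list it at 0. As for ATP8, such a value may be an estimate that failed, and no fold change is given. Without PET100, left out after seeing the data, 8 of 12 fell. COA4 and the copper chaperone COX17 had log2 fold changes of -5.12 and -3.19, both past the thresholds.

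Among 18 tested genes of mitochondrial transcription and RNA processing, 6 rose and 6 fell (median log2 fold change 0.23 against -0.25 for all genes). The background was 16.8% higher and 39.1% lower, and the count of falls was near it. PRORP, the catalytic subunit of the RNase P that frees mitochondrial messengers from transfer RNAs, fell from 682 ± 34.6 to 242 ± 63.1 and 10.8 ± 0.668 FPKM (log2 fold change -5.85, limma, adjusted p = 1.3e-11). TRMT10C, another subunit of that enzyme, and TFB1M, which methylates the small ribosomal RNA, had -4.16 and -2.48, again past the thresholds. The 6 that rose, named after their values were seen, were FASTKD2 (1.16), SUPV3L1 (1.07), PNPT1 (1.02), MTERF3 (0.67), FASTKD1 (0.67) and LRPPRC (0.62). POLRMT, the mitochondrial RNA polymerase, and TFAM, which packages the genome and starts its transcription, were too low to test, with means of at most 0.065 and 0.095 FPKM in any stage. Of 9 tested genes of mitochondrial DNA replication, 3 rose and 4 fell, the falls again near the background of 39.1%. The 3 that rose, named after their values were seen, were POLG2 (0.996), the accessory subunit of the DNA polymerase, and DGUOK (0.74) and RRM2B (0.68), which supply deoxynucleotides. Among the falls was SSBP1, the single-strand binding protein, with 287 ± 95.1 FPKM at 0h and 2.17 ± 0.993 at 46h (log2 fold change -6.50). TOP1MT, a topoisomerase, and MGME1, an exonuclease, had -1.76 and -1.09, past the thresholds as well.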

How the data were processed

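Denuded porcine oocytes gave 12 RNA libraries, 4 each at 0h, 22h and 46h. As deposited, each file gives an FPKM per Ensembl gene identifier, rounded to 2 decimals; the authors trimmed the reads with Trim Galore, aligned them to Sscrofa11 with STAR and ran RSEM. Reverse transcription was primed with oligo-dT. The study's tests used counts from HTSeq, not used here, so limma 3.58.1 in R 4.3.3 (lmFit, eBayes with an intensity trend) was fitted to log2(FPKM + 1) of all 12 libraries with stage as the only factor. A mean of at least 1 FPKM left 7013 genes. Two-sided p-values were adjusted over these genes (Benjamini-Hochberg), and a call needed an adjusted p under 0.05 and a fold change over 1.5. A fold change on this scale understates the change of low genes. Log2 ratios of members were compared by exact permutation of the 70 arrangements of 4 against 4 libraries. The fit was tested on simulated data.

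Symbols came from a table of Ensembl identifiers, which named 15029 of 31908. The 2 mitochondrial ribosomal RNAs had no match. Positions and sequences are from RefSeq Sscrofa11.1, and nuclear copies were searched with BLAST 2.17.0. Named genes are the members, up to 3 called genes of each list with the largest change at 46h against 0h, the closest gene to each member (that of COX1 is not reported here), and marker and complex I genes as their lists hold them. Genes named outside this rule are marked, except that ATP5F1C, ATP5MC3, POLRMT and TFAM were also picked after their values were seen. ASTN1 is named only as the place of a nuclear copy. Members and lists were chosen with earlier results of these data known. Alternatives were another pseudocount (0.1), other filters, scalings and thresholds, other fits, and leaving out each library. The relative depth estimate was added after seeing the data. Python 3.11.15 was used with scipy 1.17.1, pandas 2.3.3, numpy 2.4.6 and matplotlib 3.10.9.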

Additional observations from a re-analysis of the deposited data

Results flagged for a closer look

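Among 31 groups of 4 libraries that were looked at, 1 held a library far from the other 3, where chance alone would mark about 1 group in 20. It was ATP8 at 22h, listed at 3628 FPKM in replicate 2 and at 0 in replicates 1, 3 and 4. With 3 libraries at exactly 0 the gap to the highest library is the whole range of the group whatever its value, so this outcome was fixed by the zeros, and 1 of 31 is below the share that chance gives. In the same library ATP6, which overlaps ATP8, was at 20159 FPKM, the lowest of the 22h libraries. The cause of the single value was not tested.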

How the results depend on the processing

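Of 345 log2 fold changes of members under alternatives, 326 kept their direction and their side of the thresholds, 17 lost a call, 2 gained one and 0 turned. At 46h against 22h the number of members called higher was 1 (main value 3) both with no filter on low values and with quantile normalization. There COX2 and ATP6 had adjusted p of 0.0523 and 0.0557 with no filter (same log2 fold changes), and log2 fold changes of 0.34 and 0.32 with quantile normalization (adjusted p = 0.153 and 0.226). COX1 was called there with median-of-ratios scaling (0.86, adjusted p = 0.0256). COX3 at 22h against 0h was not called in 13 of 23 alternatives (adjusted p from 0.00587 to 0.126), 4 of them other than a left-out library. Scaling shifted all genes at 46h against 0h, whose median log2 fold change of -0.25 became 0.00 (median-of-ratios) or 0.37 (quantile normalization). After quantile normalization CYTB, ATP6, COX2, COX1 and COX3 were still called higher in that comparison, by 4.08, 1.82, 1.62, 1.62 and 0.90. Replicate numbers did not pair the libraries (r from -0.466 to 0.381 over 12 same-numbered pairs, 2 of 12 libraries closest to their own number). With the replicate block 4 members were called higher at 22h against 0h in place of 5 (COX3, adjusted p = 0.0798), and 1801 genes were called in place of 1873. Of 15 ratio differences, 3 that were not past the threshold changed sign when a library was left out: COX2/COX1 at 22h against 0h (-0.09, up to 0.11 without 0h replicate 2) and at 46h against 0h (0.19, to -0.02 without 0h replicate 4), and ATP6/COX1 at 22h against 0h (0.06, down to -0.20 without 0h replicate 4). With 3 against 4 libraries no p below 0.0571 is possible, so these fits say nothing on the stability of a ratio test. Limits are the 4 libraries per stage, unknown depth, values relative to the library, and priming with oligo-dT.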
